A study of Oryza sativa with 12 samples.

Results

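*OsABI5* is a rice gene at locus LOC_Os01g64000, on chromosome 1, that encodes a transcription factor of the basic leucine zipper (bZIP) family. It was measured by 1 probe, CUST_21079_Rice4x44kGene, of the 42477 probes on an Agilent rice microarray and was found by this probe name. The arrays came from seedlings of the *japonica* cultivar TNG67 and of *OsERF106MZ*-overexpressing rice (OE), in which the CaMV 35S promoter, active in most tissues, drives an ethylene-responsive factor in the TNG67 background. Both genotypes were grown for 7 days and then kept for 1 day on medium with 0 or 150 mM NaCl, and RNA was taken from the aerial parts of the seedlings. Each of the 4 groups, TNG67 and OE at 0 mM NaCl and TNG67 and OE at 150 mM NaCl, had 3 arrays. The study made a pair of OE lines, and the labels do not say which of them was hybridized. The level of the transgene was not analysed here, so the genotype of an array rests on its label.

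Abscisic acid (ABA) is the hormone that accumulates in plants under salt and water deficit. When ABA binds its receptors, these hold back group A protein phosphatases (PP2Cs). Some of the SnRK2 kinases, called SAPKs in rice, then become active and phosphorylate bZIP factors that bind ABA-responsive elements in promoters. ABI5 is a member of this group of bZIP factors. In *Arabidopsis* it is known for holding back germination and early seedling growth in the presence of ABA and for switching on late embryogenesis abundant (LEA) genes, and in rice the *OsABI5* transcript is known to respond to ABA and salt.

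The 12 arrays lay on 3 slides of 4. Slide 1 held replicates 1 and 3 of TNG67 at both NaCl concentrations, slide 2 did so for OE, and the arrays of replicate 2 of all 4 groups shared slide 3, which was scanned in a separate session. Signals of replicates on the same slide correlated at 0.9925 to 0.996 across probes, and those on different slides at 0.965 to 0.983. Between 79.3% and 88.0% of the probes on an array were well above background by the scanner's own flag, and no spot was saturated. The sources do not settle whether replicates 1 and 3 of a group came from the same plants, so the p-values measure the spread between these arrays, which may be partly technical. Because the tissue is a mixture, fewer cells of a type and less RNA per cell cannot be told apart. None of the 9 shoot and root marker genes looked for had a probe with a known locus, and the tissue was therefore not checked against markers.

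*OsABI5* was lowest in TNG67 without NaCl and highest in OE with NaCl. On the log2 scale of the normalized signal, it read 5.48, 6.0 and 4.56 on replicates 1, 2 and 3 of TNG67 at 0 mM NaCl, with a mean of 5.35 ± 0.73 (SD, n = 3). It read 7.01, 8.16 and 6.54 in TNG67 at 150 mM NaCl, with a mean of 7.23 ± 0.84 (SD, n = 3). The arrays of TNG67 with NaCl all lay above those without it. In OE at 0 mM NaCl the signal was 7.72, 6.56 and 7.69, with a mean of 7.32 ± 0.67 (SD, n = 3), and these arrays overlapped with TNG67 at 150 mM NaCl. In OE at 150 mM NaCl it was 10.39, 10.17 and 9.60, with a mean of 10.05 ± 0.41 (SD, n = 3), above all the other 9 arrays. The order of the group means was thus TNG67 at 0 mM, TNG67 at 150 mM, OE at 0 mM and OE at 150 mM NaCl, and only the middle pair of neighbours did not differ beyond their spread.

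**Figure D1:**
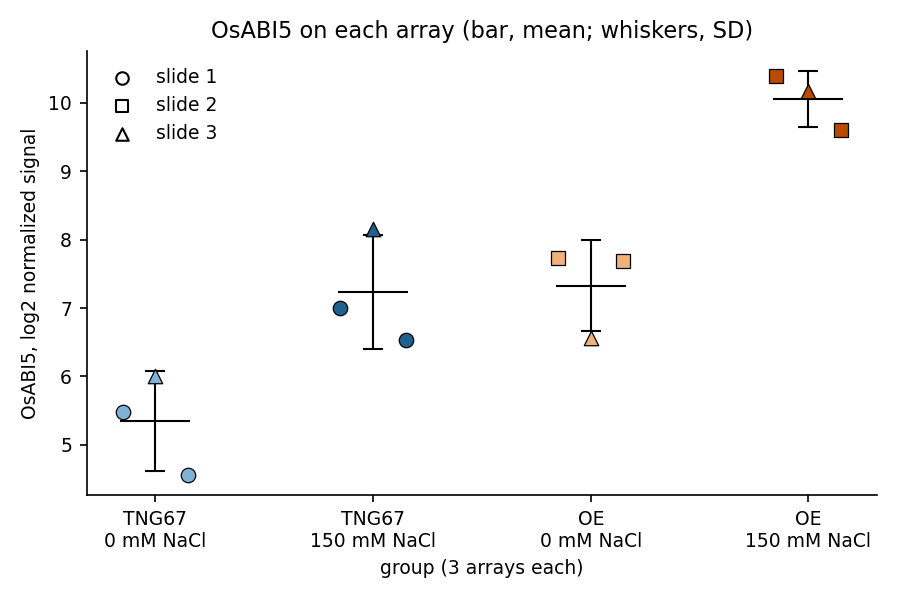
Log2 normalized signal of *OsABI5* (vertical axis) on each of 12 arrays in 4 groups (horizontal axis). Symbols mark the slide, horizontal bars the group mean and whiskers the SD (n = 3); the OE arrays at 150 mM NaCl lie between 9.60 and 10.39, and TNG67 at 0 mM NaCl between 4.56 and 6.0.

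The place of *OsABI5* among all tested probes of an array restates these levels. It was a dim probe in TNG67 at 0 mM NaCl, brighter than 11.3%, 16.2% and 3.09% of the tested probes on replicates 1, 2 and 3. It was brighter than 25.3%, 36.4% and 21.0% of them in TNG67 at 150 mM NaCl and than 32.1%, 21.3% and 31.8% in OE at 0 mM NaCl. In OE at 150 mM NaCl it was brighter than 62.9%, 60.2% and 52.8% of the tested probes, which placed it above the median tested probe on all 3 arrays. A probe's brightness depends on its sequence as well as on the transcript, so these ranks place the spot and do not set *OsABI5* against the level of other genes.

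Before normalization, the spot gave 97.5, 166 and 84.5 intensity units in TNG67 at 0 mM NaCl, over a local background of 49, 50.5 and 47 units. The third of these spots was not well above background, and *OsABI5* was well above background on 11 of the 12 arrays. In TNG67 at 150 mM NaCl the spot gave 171, 522 and 136 units, and in OE at 0 mM NaCl 216, 173 and 195 units. In OE at 150 mM NaCl it gave 1231, 1855.5 and 693 units, which was 26.8, 39.5 and 15.1 times the local background. The ratio of spot to background in TNG67 at 0 mM NaCl was 1.99, 3.29 and 1.80, and the spots of replicates 1 and 3 there were the closest to background of all 12 arrays. The error that the scanner software attached to its background-subtracted signal was 39.8% for replicate 3 of TNG67 at 0 mM NaCl and 13.9% for replicate 1, and was at most 11.2% on the other 10 arrays.

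**Figure D2:**
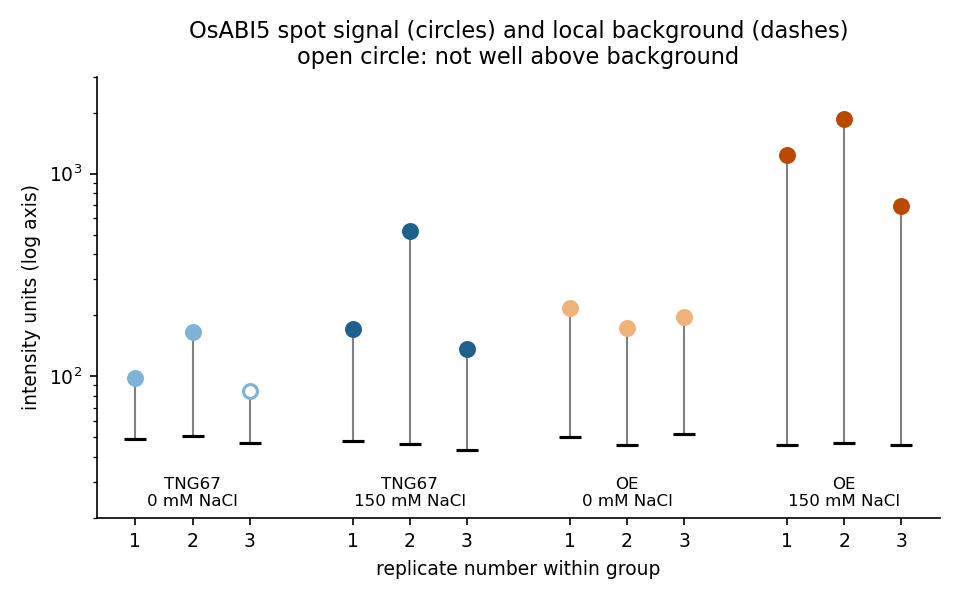
Median spot signal of *OsABI5* (circles) and its local background (dashes) in intensity units on a log axis, for the 3 replicates of each group. The open circle is the 1 array on which the spot was not well above background, replicate 3 of TNG67 at 0 mM NaCl with 84.5 units over 47.

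The values that the authors normalized and deposited place the arrays in the same way. On that scale, on which 0 is the median of this probe over the arrays, *OsABI5* was at -2.01, -1.33 and -4.18 in TNG67 at 0 mM NaCl and at -0.28, 0.91 and -0.85 in TNG67 at 150 mM NaCl. It was at 0.36, -0.77 and 0.28 in OE at 0 mM NaCl and at 3.19, 3.02 and 2.34 in OE at 150 mM NaCl. Replicate 3 of TNG67 at 0 mM NaCl, the spot that was not well above background, stood further below its group on this scale than on the scale of the limma fit. The SD of that group was 1.49 here and 0.73 in the fit.

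The first comparison asked how the overexpression of *OsERF106MZ* related to *OsABI5* without salt. At 0 mM NaCl *OsABI5* was upregulated in OE by 1.98 ± 0.49 on the log2 scale (SE, n = 3 per group), which is 3.93-fold with a 95% confidence interval of 1.87 to 8.29 (limma, adjusted p = 0.0323). No OE array fell below a TNG67 array, and the same separation was found in 16.5% of the tested probes. A share of 2.06% of the 37144 tested probes passed as upregulated in this comparison, for which both an adjusted p below 0.05 and a difference beyond 2-fold were required, and 338 of all tested probes (0.91%) rose by more than *OsABI5*. An exact two-sided permutation test on this probe alone gave p = 0.1, the smallest value that 3 arrays against 3 allow, in this comparison and in the 3 that follow.

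Because replicates 1 and 3 of each genotype had a slide of their own, slide and genotype can be told apart only through slide 3. There the OE array exceeded the TNG67 array by 0.55 at 0 mM NaCl, while the replicates numbered 1 and 3, on different slides, differed by 2.24 and 3.13. A fit with slide as a fixed block gave a difference of 0.86 (adjusted p = 0.387), and a fit with slide as a random block gave 1.31 (adjusted p = 0.137). The difference at 0 mM NaCl also missed the threshold, at an adjusted p between 0.0509 and 0.0588, with a larger normexp offset, without background correction, with the processed signals and with the deposited values. Leaving out replicate 1 or 3 of either genotype at 0 mM NaCl also ended the call, with adjusted p values of at most 0.131. *OsABI5* was higher in OE in each of these fits.

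The same comparison was made under salt. At 150 mM NaCl *OsABI5* was upregulated in OE by 2.82 ± 0.49 on the log2 scale (SE, n = 3 per group), which is 7.06-fold with a 95% confidence interval of 3.35 to 14.9 (limma, adjusted p = 0.00829). The groups did not overlap, as was the case for 11.1% of the tested probes, and 1.93% of the tested probes passed as upregulated. *OsABI5* was among the probes with the largest rise, with 118 of the 37144 tested probes (0.318%) above it. On slide 3 the OE array exceeded the TNG67 array by 2.01, and the replicates numbered 1 and 3 differed by 3.39 and 3.06. The fixed slide block gave 1.71, which missed the threshold (adjusted p = 0.0941), and the random slide block gave 2.15, which passed (adjusted p = 0.0271).

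The response to salt was compared within each genotype, where every replicate number has both of its arrays on a single slide. In TNG67, *OsABI5* was upregulated by 150 mM NaCl by 1.89 ± 0.49 on the log2 scale (SE, n = 3 per group), which is 3.70-fold with a 95% confidence interval of 1.75 to 7.79 (limma, adjusted p = 0.0198). Arrays with the same replicate number differed by 1.52, 2.16 and 1.98, all of them rises within a slide. A share of 4.96% of the tested probes passed as upregulated in this comparison, and in 19.5% all 3 arrays with NaCl lay above all 3 without it. With slide as a fixed block the difference was also 1.89 (adjusted p = 0.00298). It was 1.08 without background correction, 1.15 with a normexp offset of 50, 2.45 with the processed signals and 2.44 with the deposited values, and passed in each. Leaving out 1 array at a time moved it between 1.42 and 2.24, and the threshold was missed without replicate 1 or 3 of TNG67 at 0 mM NaCl or replicate 2 of TNG67 at 150 mM NaCl, with adjusted p values of at most 0.075.

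In OE, *OsABI5* was upregulated by NaCl by 2.73 ± 0.49 on the log2 scale (SE, n = 3 per group), which is 6.64-fold with a 95% confidence interval of 3.15 to 14.0 (limma, adjusted p = 0.00273). Within slides, arrays with the same replicate number differed by 2.67, 3.62 and 1.91. A share of 6.18% of the tested probes passed as upregulated and 21.7% had separated arrays, while 342 probes (0.921%) rose by more than *OsABI5*. Among these 4 comparisons the call held most widely here, in all 12 fits that left out 1 array and in 10 of 11 other ways of processing. The exception was the fit in which replicates 1 and 3 were averaged first, with a difference of 2.95 and an adjusted p of 0.0523.

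**Figure D3:**
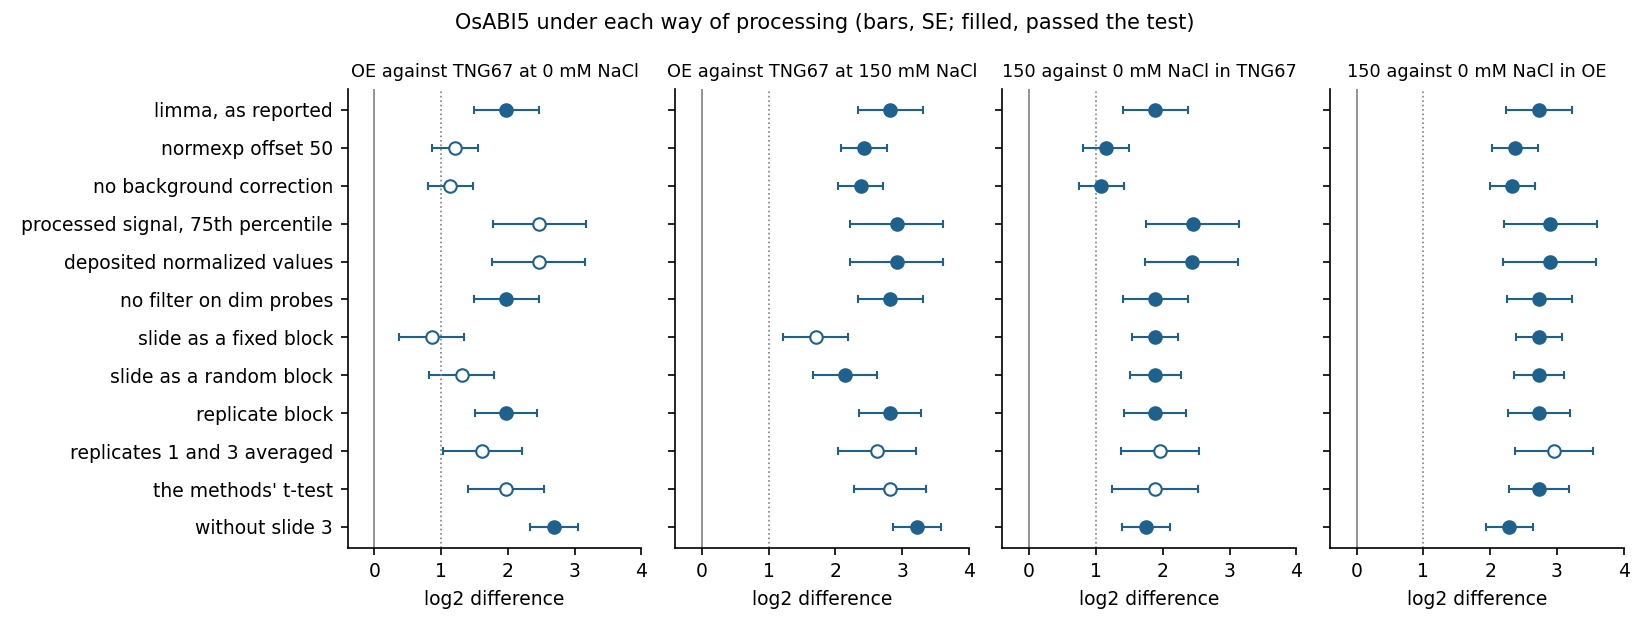
Log2 difference of *OsABI5* (horizontal axis) with its SE, in 4 comparisons (panels) under the reported fit and 11 other ways of processing (rows). Filled circles passed at an adjusted p under 0.05 and a change of over 2-fold (dotted line, log2 difference of 1). In the OE comparison at 0 mM NaCl 3 of the 11 others are filled. Among them is the fit without slide 3, in which genotype and slide coincide. In the NaCl comparison in OE 10 of 11 are filled.

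Whether the NaCl response of *OsABI5* was larger in OE than in TNG67 was tested as an interaction. The rise in OE exceeded that in TNG67 by 0.84 ± 0.69 on the log2 scale (SE, n = 3 per group), with a 95% confidence interval of -0.68 to 2.37, and the difference did not pass (limma, adjusted p = 0.838). A share of 0.0942% of the tested probes, or 35, passed this test, a count that moved between 3 (without replicate 3 of OE at 0 mM NaCl) and 145 (without replicate 2 of TNG67 at 150 mM NaCl) when 1 array was left out, and to 217 with slide as a fixed block, 291 with it as a random block and 924 without slide 3. By replicate number, the excess was 1.15 and 1.46 for replicates 1 and 2 and -0.07 for replicate 3. The interval leaves room for a rise in OE that is up to 5.16-fold that in TNG67, and for one that is 0.626 times as large.

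Added together, the genotype and the salt treatment separated the outer groups most. *OsABI5* in OE at 150 mM NaCl exceeded that in TNG67 at 0 mM NaCl by 4.71 on the log2 scale, which is 26.1-fold with a 95% confidence interval of 12.4 to 55.1 (limma, adjusted p = 6.47e-05), and 9.47% of the tested probes passed as upregulated between these groups. This call held in all 11 other ways of processing, with differences between 3.46 and 5.37. Between the middle groups, OE without salt and TNG67 with salt, *OsABI5* differed by 0.09 with a 95% confidence interval of -0.99 to 1.16 (limma, adjusted p = 0.918), and OE was higher in 5 of the 9 pairs of arrays. As a ratio of OE to TNG67, this interval spans 0.505 to 2.24. On slide 3, which held both, the OE array was lower by 1.60 (a difference of -1.60), whereas the replicates numbered 1 and 3, on different slides, differed by 0.72 and 1.15.

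*OsABI5* was then set beside other genes of ABA synthesis, signalling and response. Of 50 such genes on a list of receptors, PP2Cs, SAPKs, bZIP and related factors, enzymes and targets, 5 had a probe with a known locus. *OsPP2C68*, *OsNCED4* and *OsLEA3* were matched to their probes by fold change and not by probe name. All 5 could be named because the study had listed them among genes that differ between the genotypes on these arrays, so their counts are not independent evidence of a direction. In TNG67 and in OE, 5 of 5 rose with NaCl, with median differences of 4.80 and 4.58 on the log2 scale, where 4.96% and 6.18% of all tested probes passed as upregulated and their medians were -0.02 and -0.06. Between the genotypes, 3 of 5 were upregulated in OE at 0 mM NaCl (median 2.05, all tested probes 0.01), where 2.06% of all tested probes passed as upregulated. At 150 mM NaCl 1 of 5 was upregulated in OE (median 1.35, all tested probes -0.02), against 1.93% of all tested probes. In the interaction test 0 of 5 passed, as did 0.0942% of all tested probes in either direction.

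The kinase gene *SAPK1* (LOC_Os03g27280) was the member most similar to *OsABI5*. It belongs to the SnRK2 family, some of whose members phosphorylate ABA-related bZIP factors. Whether *SAPK1* acts on *OsABI5* was not tested. *SAPK1* read 6.60, 7.58 and 6.84 on the log2 scale in TNG67 at 0 mM NaCl and 8.33, 9.50 and 8.40 at 150 mM NaCl. In OE it read 8.23, 8.11 and 8.49 at 0 mM NaCl and 10.15, 9.85 and 10.29 at 150 mM NaCl. As with *OsABI5*, TNG67 with NaCl overlapped with OE without it, and OE with NaCl lay above all other arrays. *SAPK1* was upregulated in OE by 1.27 at 0 mM NaCl (limma, adjusted p = 0.0378) and by 1.35 at 150 mM NaCl (adjusted p = 0.0352). It was upregulated by NaCl by 1.74 in TNG67 and by 1.82 in OE. Pearson's r between the 2 probes over the 12 arrays was 0.949, which gave *SAPK1* rank 42 among all tested probes. With slide as a fixed block, the differences of *SAPK1* between the genotypes were 0.40 and 0.48 and did not pass (adjusted p = 0.239 and 0.157). When 1 array was left out, its call between the genotypes held in 5 of 12 fits at 0 mM NaCl and 6 of 12 at 150 mM NaCl. In the other ways of processing it held in 4 of 12 and 6 of 12.

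The phosphatase genes *OsPP2C30* (LOC_Os03g16170) and *OsPP2C68* (LOC_Os09g15670) belong to group A, whose members hold SnRK2 kinases inactive in the absence of ABA. With NaCl, *OsPP2C30* rose by 3.75 on the log2 scale in TNG67 and 4.58 in OE, and *OsPP2C68* by 5.48 and 4.72, more than *OsABI5* in both genotypes. Between the genotypes, *OsPP2C68* was upregulated in OE at 0 mM NaCl by 2.05 (limma, adjusted p = 0.0131), and its difference of 1.29 at 150 mM NaCl did not pass (adjusted p = 0.085). The call at 0 mM NaCl was lost with slide as a fixed block, with an adjusted p of 0.0918. *OsPP2C30* passed in neither, with differences of 0.41 and 1.24. *OsNCED4* (LOC_Os07g05940), a dioxygenase gene of ABA synthesis, rose with NaCl by 4.80 in TNG67 and 4.33 in OE, and its differences between the genotypes, 2.20 and 1.72, did not pass. The *OsNCED4* spot was well above background on 1 of the 3 arrays of TNG67 at 0 mM NaCl.

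*OsLEA3* (LOC_Os05g46480) encodes a late embryogenesis abundant protein and is commonly used as a marker of the ABA and salt response in rice. It rose with NaCl by 5.86 on the log2 scale in TNG67 and by 5.80 in OE. Its spot was well above background on 1 of the 3 arrays of TNG67 at 0 mM NaCl, and the difference in TNG67 moved between 3.84 and 7.71 with the way of processing, passing in each. It was upregulated in OE by 2.44 at 0 mM NaCl (limma, adjusted p = 0.0391), and the difference of 2.39 at 150 mM NaCl did not pass (adjusted p = 0.0501). The call of *OsLEA3* at 0 mM NaCl was lost with slide as a fixed block (1.11, adjusted p = 0.39). The homeobox gene *OsHOX24* (LOC_Os02g43330) and *OsSRO1c* (LOC_Os03g12820), which encodes a protein with a poly(ADP-ribose) polymerase-like domain, rose with NaCl by 5.97 and 4.64 in TNG67 and by 5.51 and 4.48 in OE. The F-box protein gene *OsMAIF1* (LOC_Os02g44990) rose in OE by 1.90 (adjusted p = 0.0143), while its difference of 1.36 in TNG67 did not pass (adjusted p = 0.0633), with a spot well above background on 1 of 3 arrays in each genotype at 0 mM NaCl. Between the genotypes at 0 and 150 mM NaCl, *OsSRO1c* differed by 2.19 and 2.03 (adjusted p = 0.0507 and 0.077), *OsHOX24* by 1.94 and 1.48 (adjusted p = 0.0825 and 0.198) and *OsMAIF1* by 0.59 and 1.13 (adjusted p = 0.5 and 0.194), none of which passed. The study's own qPCR, on RNA from the shoots used for the arrays, found these genes and *OsABI5* higher in OE at both NaCl concentrations. That qPCR was not re-analysed here. The NAC factor gene *OsNAC006* (LOC_Os01g09550) moved the other way from *OsABI5* between the genotypes, with -1.11 at 0 mM NaCl (adjusted p = 0.00453) and -1.25 at 150 mM NaCl (adjusted p = 0.00311), where 2.3% and 1.42% of the tested probes passed as lower in OE. Its response to NaCl passed in neither genotype, and with slide as a fixed block its differences between the genotypes were -0.85 and -0.99, under 2-fold.

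**Figure D4:**
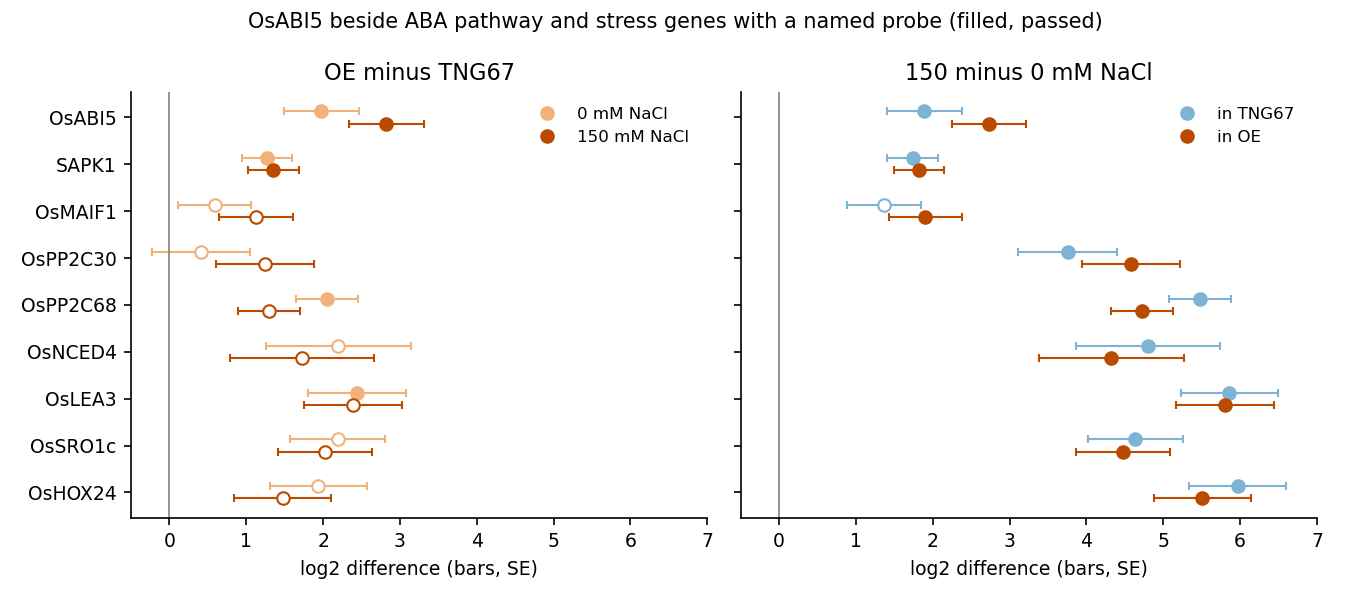
Log2 differences (horizontal axis, bars SE) of *OsABI5* and the 8 named ABA pathway and stress genes other than *OsNAC006* (vertical axis), between genotypes at each NaCl concentration (left) and between NaCl concentrations in each genotype (right). Filled circles passed; *OsABI5* and *SAPK1* are the 2 genes filled in all 4 comparisons, and the NaCl differences of *OsABI5*, 1.89 and 2.73, are smaller than those of *OsLEA3*, 5.86 and 5.80.

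The level in OE without salt was also set against that in TNG67 with salt. For *OsABI5* the difference between these groups was 0.09, or -1.03 with slide as a fixed block, and passed in neither fit. For *SAPK1* it was -0.46 (limma, adjusted p = 0.347) and for *OsMAIF1* -0.77 (adjusted p = 0.278). It was -3.34 for *OsPP2C30*, -3.43 for *OsPP2C68*, -3.42 for *OsLEA3*, -4.03 for *OsHOX24* and -2.45 for *OsSRO1c*, all of which passed as lower in OE without salt, while -2.60 for *OsNCED4* did not pass (adjusted p = 0.0712). Among the tested probes, 4.46% passed as lower and 4.52% as higher in this comparison. Differences between genes in this value were not tested. Replicate 2 of TNG67 at 150 mM NaCl, the array on slide 3, was the highest of its group for *OsABI5* and for each of these salt-responsive genes; *OsNCED4*, for example, read 12.06 there and 7.72 and 8.03 on slide 1. The part of this array or its slide in the comparisons between genotypes was not tested beyond the fits with slide as a block and those without it.

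The probes whose log2 signals followed *OsABI5* most closely were ranked by Pearson's r over the 12 arrays. The arrays share groups and slides, so r is given only as a description. Because the probes were picked for following *OsABI5* on these arrays, their calls in the same comparisons are not independent of that choice. Of 37084 probes with a value on every array, 2489 had an r above 0.8 and 437 an r above 0.9. The closest was CUST_18141_Rice4x44kGene, for locus LOC_Os08g43120, with r = 0.983. On the log2 scale its group means of 5.14, 7.08, 7.37 and 9.95, in the order TNG67 at 0 and 150 mM and OE at 0 and 150 mM NaCl, ran close to the 5.35, 7.23, 7.32 and 10.05 of *OsABI5*. It passed in the same 4 comparisons, with differences of 2.23 and 2.88 between the genotypes and of 1.94 and 2.58 between the NaCl concentrations. As for *OsABI5*, its differences between the genotypes were smaller with slide as a fixed block, at 0.66 and 1.30, and did not pass (adjusted p = 0.469 and 0.142).

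The next closest probes were CUST_22124_Rice4x44kGene (LOC_Os07g43240), CUST_32909_Rice4x44kGene and CUST_29507_Rice4x44kGene, each with r = 0.974, and CUST_15773_Rice4x44kGene with r = 0.971. The probe for LOC_Os07g43240 passed in all 4 comparisons with smaller changes than *OsABI5*, between 1.23 and 1.83 on the log2 scale, and with smaller SDs within groups, between 0.19 and 0.21. With slide as a fixed block its difference between the genotypes was 1.00 at 0 mM NaCl, just under 2-fold, and 1.42 at 150 mM NaCl, which passed. CUST_32909_Rice4x44kGene, whose locus was not known here, also passed in all 4, with its largest difference, 3.58, between the genotypes at 150 mM NaCl. With slide as a fixed block this probe still passed between the genotypes, with 1.77 at 0 mM and 2.96 at 150 mM NaCl. CUST_29507_Rice4x44kGene and CUST_15773_Rice4x44kGene likewise had their lowest mean in TNG67 at 0 mM NaCl and their highest in OE at 150 mM NaCl, but with differences under 1 on the log2 scale, and passed in none of the 4.

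Among probes with a known locus, the next in rank were those for LOC_Os03g11490 (r = 0.961, rank 16), LOC_Os01g71680 (r = 0.961, rank 17) and LOC_Os09g09650 (r = 0.959, rank 20). A locus was known only for probes of genes that the study had listed as differing between the genotypes on these arrays. The probe for LOC_Os09g09650 rose further than *OsABI5* in OE with NaCl, from a mean of 4.66 in TNG67 at 0 mM NaCl to 10.75. Its mean in OE at 0 mM NaCl was higher than in TNG67 at 150 mM NaCl by 1.08 (limma, adjusted p = 0.0426). The arrays of these groups still overlapped for this probe, as they did for *OsABI5*. On slide 3 it read 6.99 in OE at 0 mM NaCl and 7.11 in TNG67 at 150 mM NaCl. The probe for LOC_Os03g11490 differed by 0.94 to 1.41 and that for LOC_Os01g71680 by 1.23 to 2.03 in the 4 comparisons. For both, the NaCl difference in TNG67 did not pass, while the other comparisons did. It was 0.94, under 2-fold, for LOC_Os03g11490 and 1.23 (limma, adjusted p = 0.0644) for LOC_Os01g71680. With slide as a fixed block, the genotype differences of LOC_Os03g11490 at 0 and 150 mM NaCl were 0.82 and 0.91, and those of LOC_Os01g71680 were 0.45 and 0.73 (adjusted p = 0.365 and 0.143), and none passed. Those of LOC_Os09g09650 were 2.38 and 4.05 and passed. In TNG67 at 0 mM NaCl the probes for LOC_Os08g43120, LOC_Os01g71680 and LOC_Os09g09650 and CUST_32909_Rice4x44kGene were well above background on 1 of 3 arrays.

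**Figure D5:**
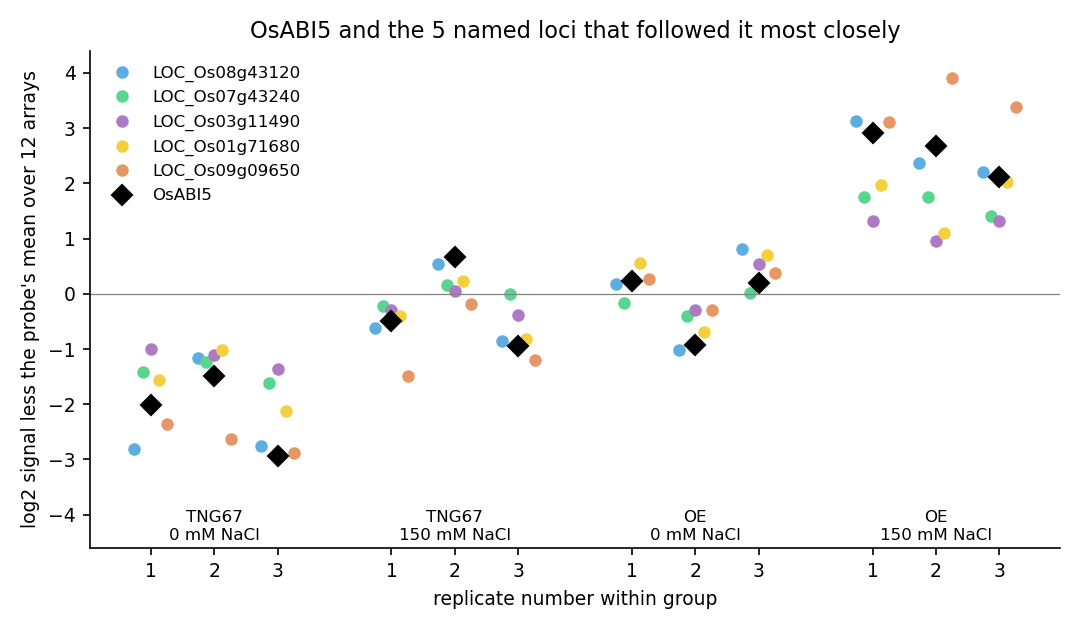
Log2 signal less each probe's mean over 12 arrays (vertical axis) for *OsABI5* (black diamonds) and the 5 named loci with the highest r (coloured circles), by group and replicate number (horizontal axis). *OsABI5* and LOC_Os08g43120 (r = 0.983) share their lowest values in TNG67 at 0 mM NaCl and their highest in OE at 150 mM NaCl, and LOC_Os09g09650 reaches highest.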

How the data were processed

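RNA from shoots was labelled with Cy3 and hybridized to single-dye arrays. The genotype, NaCl concentration and replicate number came from the array titles, because the source names of OE without NaCl all repeat 1 replicate number, and the slide came from the scanner's record. The authors deposited, for each array, spot and background intensity values with flags for outlier spots and spots well above background, extracted with Agilent Feature Extraction 10.7.1.1 per the submitters' processing notes. The authors also deposited normalized log2 values, which matched log2 processed signals less a constant per array and per probe within 0.01 for 99.9% or more of the probes on each array; how each constant was chosen is not given in the sources used here. The deposited column medians lay between -0.09 and 0.06.

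Median signals were corrected with normexp (offset 0, median local background) and quantile-normalized in limma 3.58.1 (R 4.3.3). Control and outlier spots were left out. A probe was tested if at least 50% of its spots were well above background on at least 3 arrays, which kept 37144 of 42477. A mean per group was fitted with lmFit and eBayes over all 12 arrays, with p-values adjusted by Benjamini-Hochberg over all tested probes. Probes with an adjusted p below 0.05 that also differed beyond 2-fold passed. The number of arrays limits the precision. The fit was tested on simulated data with independent noise on each array and no slide effect. That test therefore does not cover the slide layout of these arrays.

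Probes were named by the locus paired with them in the study's list of differing genes (1182 probes), or through a second list whose fold changes matched those of 1 probe (446 loci; where both lists gave a probe, 423 of 424 were the same). Fold changes in these lists were used for naming only. The genes named are *OsABI5*, the 5 probes and the 5 probes with a locus that correlate most with it, the members of the ABA list with a probe, and 4 stress genes that the study names. *OsABI5*, the lists and the tests were chosen with earlier results of these data known. Deviations of same-numbered arrays from their group means correlated at 0.172 to 0.681 across probes in every comparison. Number 2 is slide 3 in every group, and differently numbered arrays were not compared. These correlations therefore do not show whether the numbers pair the arrays.

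The alternatives were a normexp offset of 50, no background correction, processed signals shifted to the 75th percentile, the deposited values, other filters on dim probes, slide as a fixed or random block, the replicate block, replicates 1 and 3 averaged, the methods' t-test, each array left out, and, chosen after seeing the data, all arrays of slide 3 left out.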

Additional observations from a re-analysis of the deposited data

How the results depend on the processing

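*OsABI5* kept its direction in the 4 comparisons of genotype and NaCl under every alternative run. In OE against TNG67 at 0 mM NaCl, the difference on the log2 scale missed the threshold with a normexp offset of 50 (1.21), without background correction (1.14), with processed signals (2.47), with the deposited values (2.47), with slide as a fixed block (0.86) or random block (1.31), with replicates 1 and 3 averaged (1.62) and in the methods' t-test (1.98, Benjamini-Hochberg adjusted p = 0.146). At 150 mM NaCl it missed with slide as a fixed block (1.71), with replicates 1 and 3 averaged (2.62) and in the methods' t-test (2.82, adjusted p = 0.167). The NaCl difference missed in TNG67 with replicates 1 and 3 averaged (1.95) and in the methods' t-test (1.89, adjusted p = 0.162), and in OE with replicates 1 and 3 averaged (2.95). Averaging leaves 8 values for the fit; the other causes were not tested.

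Leaving out each array in turn gave 1.58 to 2.36 at 0 mM NaCl, which passed in 8 of 12 fits and missed without replicate 1 or 3 of TNG67 or of OE at 0 mM NaCl. It gave 2.47 to 3.28 at 150 mM NaCl, 1.42 to 2.24 for NaCl in TNG67 (passed in 9 of 12), 2.35 to 2.96 for NaCl in OE and 0.46 to 1.31 for the interaction, which passed in no fit. The replicate block, which treats same-numbered arrays as paired, changed no call of *OsABI5*. Its adjusted p values (limma) were 0.0259 and 0.00862 between genotypes, 0.0163 and 0.00269 between NaCl concentrations and 0.61 for the interaction. Without slide 3, an alternative chosen after seeing the data, the 4 differences were 2.69, 3.22, 1.75 and 2.29 and all passed. In that fit the genotypes lay on different slides, so its differences between OE and TNG67 cannot be told apart from slide. Each group then held only replicates 1 and 3, which may come from the same plants.

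The difference between OE at 0 mM and TNG67 at 150 mM NaCl changed sign with slide as a fixed block (-1.03) or random block (-0.58), with replicates 1 and 3 averaged (-0.33), and in 4 fits that left out 1 array (-0.26 to 0.55 over all 12: -0.03 without replicate 1 and -0.26 without replicate 3 of TNG67 at 150 mM NaCl, -0.11 without replicate 1 and -0.09 without replicate 3 of OE at 0 mM NaCl), and was 0.94 without slide 3. It passed in none of these. *OsABI5* is left out by a filter that asks for every array to be well above background, which gives no value. Of 1009 alternatives for 43 passing results of the other named probes, 158 missed the threshold and 0 changed direction. The spots of *OsABI5* were 1.80 to 3.29 times their background in TNG67 at 0 mM NaCl and 3.16 times on replicate 3 of TNG67 at 150 mM NaCl, which limits comparisons with these groups.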
